A study of Mus musculus with 9 samples.

Results

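The ATF4 stress response genes are 10 genes taken by name from the pathway around the transcription factor ATF4: Atf4, Atf5, Atf3, Ddit3, Asns, Chac1, Trib3, Sesn2, Ddit4 and Eif4ebp1. All probe sets annotated to these symbols alone were used, 17 in number, out of 22690 probe sets and 12393 named genes on the array. RNA was measured on 9 Affymetrix mouse arrays, 3 for each of 3 kinds of blood cell. L-GMP-derived cells were propagated from L-GMP in vitro. L-GMP are cells with the features of granulocyte-macrophage progenitors taken from leukemic marrow, in a study of leukemia made by MLL-AF9, a fusion of the genes Kmt2a and Mllt3. GMP are normal marrow progenitors of granulocytes and macrophages. The titles of the L-GMP-derived arrays are a code and their source label is L-GMP, so they were taken for the cultured cells by elimination, and all results on them rest on that reading. Strain, age, sex, culture medium and the way the fusion was delivered are not stated in these labels. No label says whether arrays of 1 group stem from different mice or cultures, and the p-values may therefore rest on technical spread only.

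ATF4 is the main effector of the integrated stress response. Kinases that sense amino acid shortage, unfolded protein in the endoplasmic reticulum, low heme or double-stranded RNA phosphorylate the initiation factor eIF2, which lowers protein synthesis in general but raises translation of the Atf4 message. ATF4 protein then pairs with C/EBP or other partners on composite elements in its target genes, which serve amino acid synthesis and uptake, transfer RNA charging, redox balance and feedback on translation. Because much of this control acts on translation, Atf4 RNA is not a measure of ATF4 protein.

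RefSeq promoters (GRCm38.p6, 250 bases before to 50 after the start site) were found for 9 of the 10 genes. They were searched on both strands for TGATGNAA, the core of the composite C/EBP-ATF element, whose reverse complement is TTNCATCA. It was present in 4 of the 10 member promoters (Atf5 has a pair of them), against 1304 of 32851 RefSeq promoters (3.97%). The 4 are shown because 3 of them belong to the genes whose representative probe sets rose most, with the match in capitals. A match is a description of the letters and not a mapped binding site. The Asns promoter lies at chr6:7693160-7693459 on the minus strand, with its match read forward from position -23 relative to the start site. The Trib3 promoter, chr2:152344011-152344310 on the minus strand, holds it in reverse from position 15. The Chac1 promoter, chr2:119350992-119351291 on the plus strand, holds it in reverse from position -193. The Atf3 promoter, chr1:191183284-191183583 on the minus strand, holds it in reverse from position -110.
Asns: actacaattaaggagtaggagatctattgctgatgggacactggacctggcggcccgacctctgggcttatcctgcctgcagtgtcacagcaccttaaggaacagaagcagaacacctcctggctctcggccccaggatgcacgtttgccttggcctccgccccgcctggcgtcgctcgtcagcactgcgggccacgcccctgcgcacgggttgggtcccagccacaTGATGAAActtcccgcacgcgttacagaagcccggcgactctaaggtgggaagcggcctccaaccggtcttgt
Trib3: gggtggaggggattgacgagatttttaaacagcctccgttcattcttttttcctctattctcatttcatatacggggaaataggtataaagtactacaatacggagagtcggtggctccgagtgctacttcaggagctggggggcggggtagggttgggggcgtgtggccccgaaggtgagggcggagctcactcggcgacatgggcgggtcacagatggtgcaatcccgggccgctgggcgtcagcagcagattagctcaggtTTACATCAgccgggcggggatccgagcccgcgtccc
Chac1: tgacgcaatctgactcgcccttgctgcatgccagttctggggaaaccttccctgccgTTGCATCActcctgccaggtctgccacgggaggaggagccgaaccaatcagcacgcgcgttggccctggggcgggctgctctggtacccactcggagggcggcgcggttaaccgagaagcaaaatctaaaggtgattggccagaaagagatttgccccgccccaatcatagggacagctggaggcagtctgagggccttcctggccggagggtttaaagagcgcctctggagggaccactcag
Atf3: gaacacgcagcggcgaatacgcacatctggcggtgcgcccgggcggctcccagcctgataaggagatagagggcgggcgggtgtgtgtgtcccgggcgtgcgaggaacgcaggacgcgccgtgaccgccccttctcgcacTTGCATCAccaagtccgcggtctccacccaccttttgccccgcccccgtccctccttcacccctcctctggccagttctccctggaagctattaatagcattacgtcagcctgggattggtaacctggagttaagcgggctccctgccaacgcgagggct
The cyclic AMP response element TGACGTCA, which ATF and CREB proteins also bind, was in 0 of the 10 member promoters and in 1.79% of all of them.

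Across the set, 7 of the 10 genes rose in L-GMP-derived cells against GMP and 0 fell, and the same 7 rose against L-GMP, again with 0 that fell. The 7 are Atf4, Atf5, Asns, Chac1, Trib3, Ddit4 and Eif4ebp1. In L-GMP against GMP, 0 of the 10 passed the test in either direction by limma at an adjusted p of 0.05, and 0 had an unadjusted p under 0.05. For these counts each gene was represented by the probe set with the highest average log2 signal. Among all 8959 tested genes, 13.4% were higher and 10.6% lower in L-GMP-derived cells against GMP. The background for L-GMP-derived cells against L-GMP was 16.6% higher and 14.1% lower, and for L-GMP against GMP 13.1% higher and 12.8% lower. The median log2 difference of the 10 genes was 1.36 in L-GMP-derived cells against GMP, 1.34 in L-GMP-derived cells against L-GMP and 0.03 in L-GMP against GMP, while the median over all tested genes was within 0.01 of 0 in each. Trib3, Chac1 and Atf5 passed the filter on dim signals only through their L-GMP-derived arrays, with 0, 1 and 2 other arrays over it where 3 were needed. These 3 genes entered the test because they were high there, so their calls add no support. Of the other 7 members, 4 rose and 0 fell in both comparisons of L-GMP-derived cells, with a median log2 difference of 0.25 against GMP and 0.37 against L-GMP. The comparisons share arrays, so their counts are not independent. In bulk RNA, a larger share of expressing cells and more RNA per cell cannot be told apart.

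**Figure D1:**
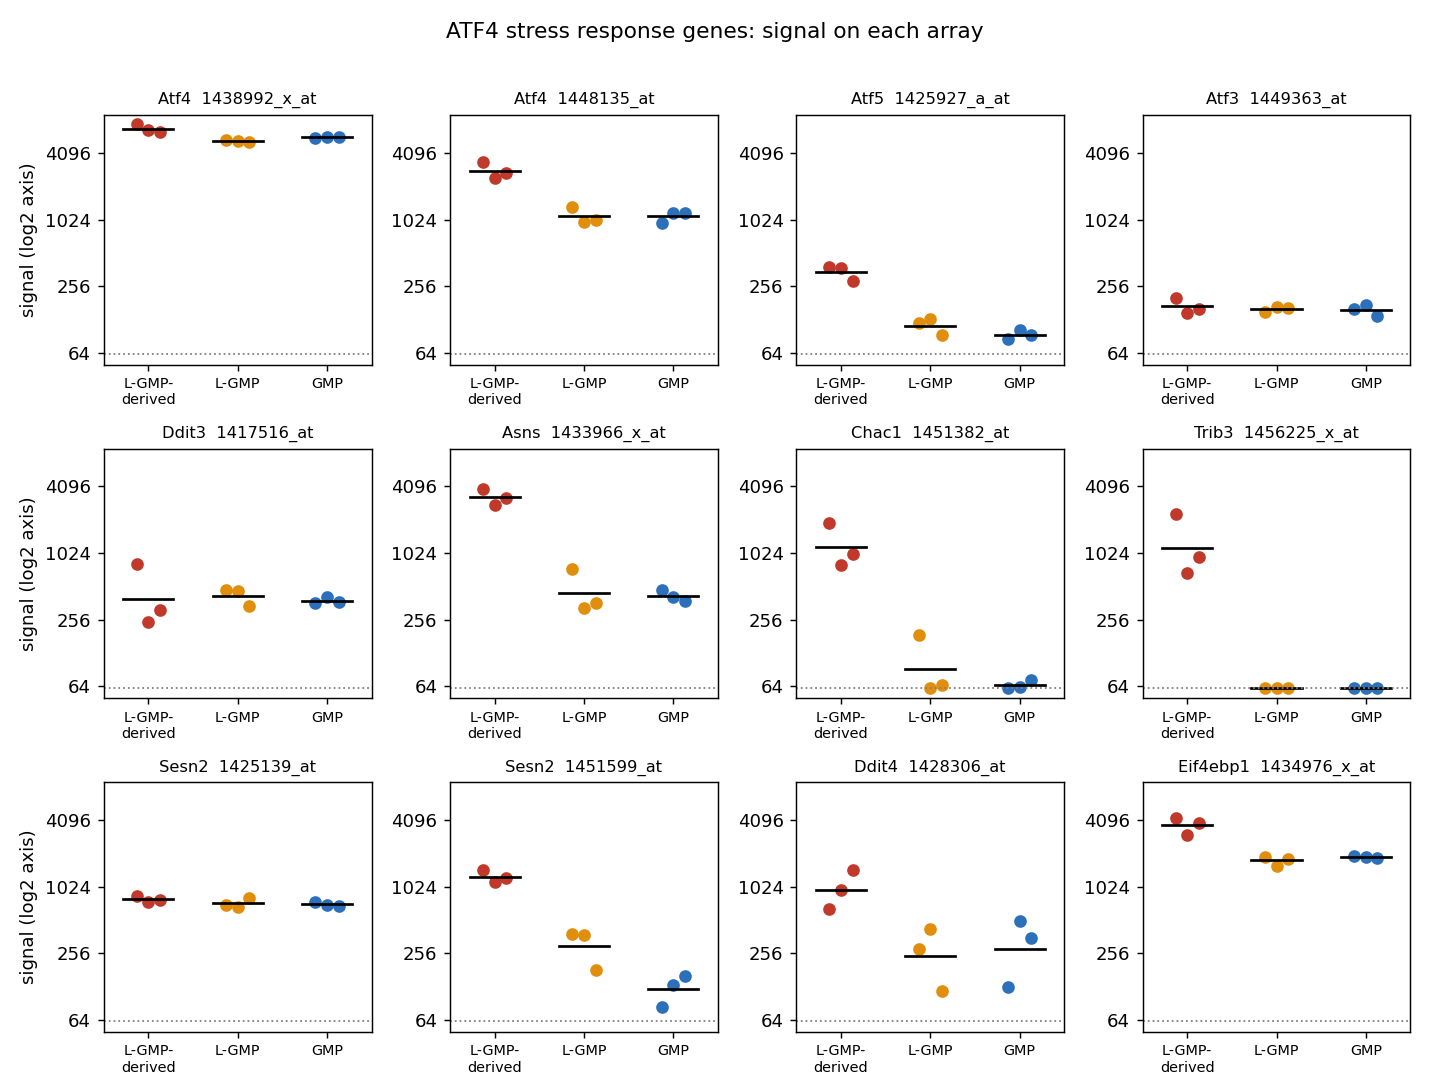
Signal of each member gene on each of the 9 arrays (log axis, deposited linear signal, 1 probe set per gene and a second for Atf4 and Sesn2; signals under the floor of 62.4, the dotted line, are drawn at it), with the L-GMP-derived, L-GMP and GMP arrays from left to right. Points are arrays and the black line is the mean of the log2 signals. The L-GMP-derived arrays lie above all others for the 7 genes that rose, and all groups overlap for Atf3 and Ddit3. Those 7 were picked by their calls on these same arrays, so their separation adds no support. The shares that follow cover all tested probe sets, called or not, and are no like comparison for genes picked by call. Among all tested probe sets, 40.9% did not overlap, in either direction, between the L-GMP-derived and GMP arrays. The share was 40.4% between the L-GMP-derived and L-GMP arrays and 46.3% between the L-GMP and GMP arrays.

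Among the transcription factors, Atf5 moved most. Atf5, a relative of ATF4 whose message is also under eIF2-dependent translational control, had signals of 384, 377 and 286 on the L-GMP-derived arrays, 118, 130 and 91.8 on the L-GMP arrays and 85.7, 103 and 92.4 on the GMP arrays. Every L-GMP-derived array lay above every other array, and the L-GMP and GMP arrays overlapped. The fold change was 3.70 in L-GMP-derived cells against GMP (log2 1.89 ± 0.17 SE, limma adjusted p = 2.91e-05) and 3.09 against L-GMP (log2 1.63, adjusted p = 7.05e-05). Since Atf5 passed the filter on dim signals only through its L-GMP-derived arrays, these calls add no support.

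Atf4 itself was read by 3 probe sets that did not move alike. The brightest, 1438992_x_at, gave 7435, 6533 and 6359 on the L-GMP-derived arrays, 5352, 5276 and 5117 on the L-GMP arrays and 5588, 5754 and 5734 on the GMP arrays. The L-GMP-derived arrays were highest and the L-GMP arrays lowest, with no overlap between any 2 groups, but the fold was small: 1.19 against GMP (log2 0.25 ± 0.06 SE, limma adjusted p = 0.00918) and 1.29 against L-GMP (adjusted p = 0.000796). The call against GMP was lost without the intensity trend in limma (adjusted p = 0.0797). The probe set 1448135_at gave 3404, 2411 and 2723 on the L-GMP-derived arrays, 1336, 965 and 1022 on the L-GMP arrays and 954, 1182 and 1184 on the GMP arrays. By this probe set Atf4 rose 2.56-fold in L-GMP-derived cells against GMP (limma adjusted p = 0.000202) and 2.57-fold against L-GMP (adjusted p = 0.000155), and L-GMP and GMP overlapped. The dim 1439258_at did not pass the test in any comparison, and its signals of 125, 133 and 102 on the L-GMP-derived arrays lay below the 203, 138 and 245 of L-GMP (log2 -0.67, limma adjusted p = 0.101). The size of the Atf4 difference therefore depended on the probe set, and the brightest one, whose name ends in _x_at, can also bind related transcripts. The same limit holds for the _x_at probe sets that stand for Asns, Trib3 and Eif4ebp1 in the counts.

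Atf3 and Ddit3, the stress-induced factors that often follow ATF4, did not pass the test in any of the 3 comparisons. Atf3 had signals of 201, 148 and 159 on the L-GMP-derived arrays, 149, 165 and 164 on the L-GMP arrays and 159, 174 and 137 on the GMP arrays, and all groups overlapped. Its log2 difference was 0.11 in L-GMP-derived cells against GMP, with a 95% interval of -0.23 to 0.44 (limma adjusted p = 0.649), and 0.08 against L-GMP. Ddit3, which encodes the pro-apoptotic factor CHOP, had signals of 814, 245 and 313 on the L-GMP-derived arrays, 472, 463 and 342 on the L-GMP arrays and 361, 414 and 366 on the GMP arrays. L-GMP-derived replicate 1 was the highest of all 9 arrays and replicates 2 and 3 were the lowest. The log2 difference was 0.06 against GMP (95% interval -0.73 to 0.85, limma adjusted p = 0.922) and -0.09 against L-GMP (adjusted p = 0.886). Without L-GMP-derived replicate 1, Ddit3 was lower in L-GMP-derived cells against L-GMP (log2 -0.61, limma adjusted p = 0.0183), and the value against GMP was -0.46 (adjusted p = 0.0672).

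The genes of amino acid and glutathione metabolism among the members had large differences. Asns makes asparagine from aspartate and glutamine. Its signals by 1433966_x_at were 3916, 2802 and 3213 on the L-GMP-derived arrays, 738, 325 and 362 on the L-GMP arrays and 478, 413 and 376 on the GMP arrays. The L-GMP-derived arrays stood far above the others, while L-GMP and GMP overlapped because L-GMP replicate 1 was above every GMP array and the other L-GMP replicates below them. Asns rose 7.80-fold against GMP (log2 2.96 ± 0.27 SE, limma adjusted p = 3.19e-05) and 7.41-fold against L-GMP (adjusted p = 3.46e-05). A second probe set, 1451095_at, gave 8.68-fold against GMP and 6.72-fold against L-GMP.

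Chac1 encodes a gamma-glutamyl cyclotransferase that breaks down glutathione. It had signals of 1932, 793 and 1002 on the L-GMP-derived arrays, 185, 52.3 and 66.0 on the L-GMP arrays and 59.5, 62.6 and 73.6 on the GMP arrays. Outside the L-GMP-derived arrays, L-GMP replicate 1 alone exceeded 111, the signal a probe set had to pass on 3 arrays to be tested. Values under 62.4 were raised to that floor. Its mean was 1243 ± 606 in L-GMP-derived cells, against 101 ± 73.2 (L-GMP) and 65.2 ± 7.40 (GMP) (SD, n = 3 each). Between the means of log2 signals, Chac1 rose at least 17.5-fold against GMP (log2 4.13 ± 0.41 SE, limma adjusted p = 5.82e-05) and at least 12.6-fold against L-GMP (adjusted p = 0.000111). Against L-GMP the ratio of the plain means is lower than this bound. Like Atf5, Chac1 entered the test only through its L-GMP-derived arrays, so its calls add no support.

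Trib3, a pseudokinase that binds ATF4 and AKT and feeds back on the response, had signals of 2331, 683 and 943 on the L-GMP-derived arrays by 1456225_x_at. On the L-GMP arrays it gave 2.01, 3.40 and 7.97 and on the GMP arrays 8.38, 6.50 and 10.7, all under the floor. The difference was at least 18.3-fold in both comparisons (limma adjusted p = 1.46e-05 against GMP and 1.56e-05 against L-GMP), and no fold can be given between L-GMP and GMP. The probe set 1426065_a_at also rose, at least 2.59-fold in both, with L-GMP-derived signals of 263, 121 and 133, and lost both calls with a higher floor, at the 40th percentile (limma adjusted p = 0.128 and 0.115). Both Trib3 probe sets entered the test only through their L-GMP-derived arrays, so their calls add no support either. For Asns, Chac1 and Trib3 alike, L-GMP-derived replicate 1 was the highest array.

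**Figure D2:**
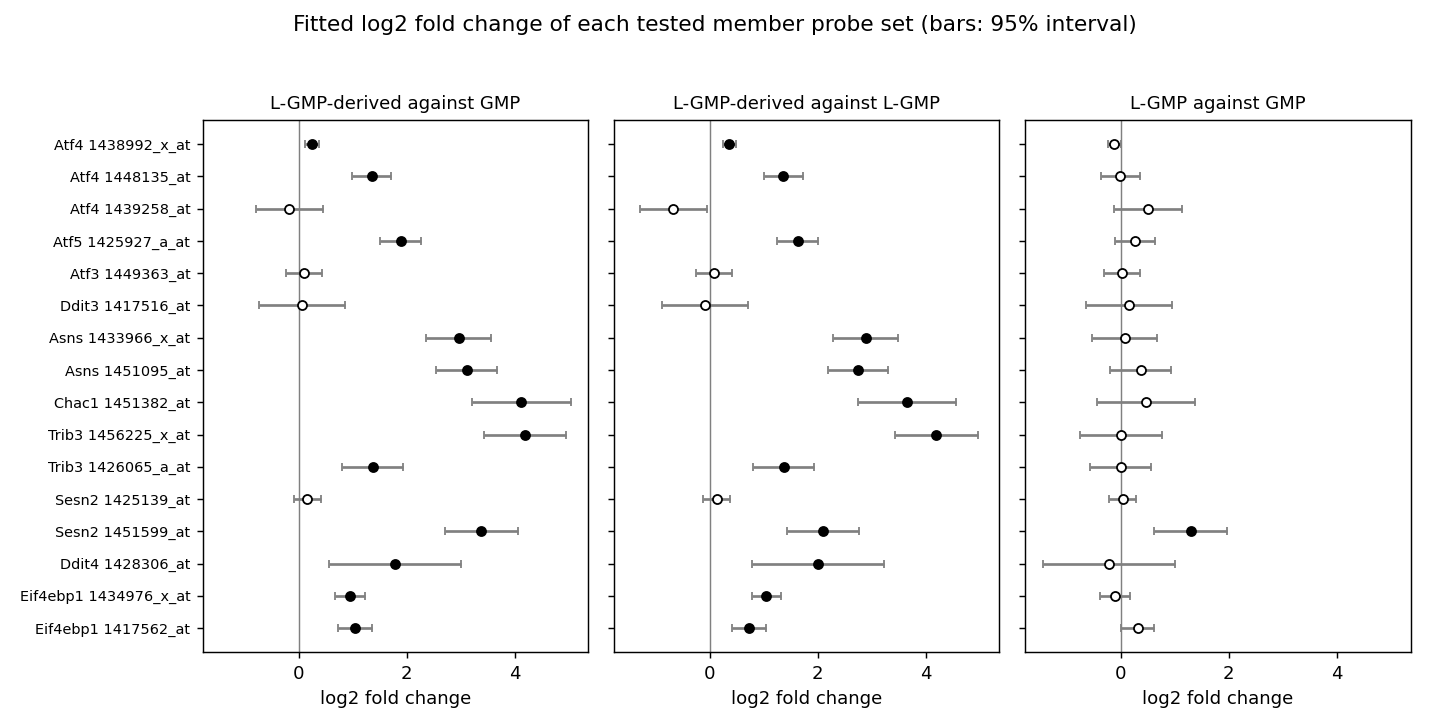
Log2 fold change of every tested member probe set in each comparison, with 95% intervals from the limma fit (n = 3 arrays a group). Filled points passed an adjusted p of 0.05 and open points did not. Intervals of Trib3, Chac1 and Asns lie far above 0 in both comparisons of L-GMP-derived cells, and in L-GMP against GMP only 1 Sesn2 probe set was called. Trib3, Chac1 and Atf5 were tested only because they were high on the L-GMP-derived arrays.

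The members that act on mTORC1 and cap-dependent translation were Sesn2, Ddit4 and Eif4ebp1. Sesn2, a leucine sensor that restrains mTORC1, was read by a pair of probe sets that disagreed. By 1451599_at its signals were 1453, 1120 and 1233 on the L-GMP-derived arrays, 380, 372 and 182 on the L-GMP arrays and 83.0, 132 and 160 on the GMP arrays, with no overlap between any groups. This gave 10.5-fold against GMP (log2 3.39 ± 0.30 SE, limma adjusted p = 2.73e-05) and 4.27-fold against L-GMP (adjusted p = 0.000554). It was also the only member probe set called in L-GMP against GMP, at 2.45-fold (log2 1.29 ± 0.30 SE, limma adjusted p = 0.0101), and this call was lost with no filter on dim signals (adjusted p = 0.0589). The brighter 1425139_at, which stands for the gene in the counts, gave 848, 744 and 784 on the L-GMP-derived arrays, 697, 677 and 806 on the L-GMP arrays and 740, 697 and 686 on the GMP arrays. It did not pass the test in any comparison, with a log2 difference of 0.16 against GMP (95% interval -0.09 to 0.41, limma adjusted p = 0.336). When the probe sets of each gene were averaged, Sesn2 was called higher in all 3 comparisons.

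Ddit4, also called REDD1, blocks mTORC1 through TSC2. It had signals of 640, 966 and 1450 on the L-GMP-derived arrays, 280, 424 and 117 on the L-GMP arrays and 126, 498 and 352 on the GMP arrays. The L-GMP-derived arrays lay above all others, but every group was widely spread. The rise was 3.43-fold against GMP (log2 1.78 ± 0.55 SE, limma adjusted p = 0.0392) and 4.01-fold against L-GMP (adjusted p = 0.0194). The call against GMP was lost without any of L-GMP replicate 1, L-GMP-derived replicate 2 or 3 and GMP replicate 1 or 3 (adjusted p of 0.0533 to 0.129), and that against L-GMP without L-GMP replicate 3 or L-GMP-derived replicate 2 or 3 (0.051 to 0.0753).

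Eif4ebp1, whose product binds the cap-binding factor eIF4E and holds back translation, had signals of 4246, 2997 and 3856 on the L-GMP-derived arrays by 1434976_x_at. It had 1916, 1579 and 1822 on the L-GMP arrays and 1955, 1893 and 1845 on the GMP arrays. The L-GMP-derived arrays again stood above the rest, at 1.93-fold over GMP (log2 0.95 ± 0.12 SE, limma adjusted p = 0.000366) and 2.07-fold over L-GMP (adjusted p = 0.000147). By 1417562_at the folds were 2.05 and 1.66, and 1417563_at, at most 84.3 on any array, was too dim to test.

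The arrays of the cultured cells were not alike in these genes. L-GMP-derived replicate 1 was the highest of its group for 9 of the 10 members, against 35.6% of all tested genes, and the lowest only for Ddit4. Replicate 2 was the lowest for 7 of the 10, against 25.3% of all genes. Over the 14578 tested probe sets, replicate 1 correlated at 0.958 and 0.964 with replicates 2 and 3, which correlated at 0.989 with each other. Without replicate 1, the same 7 members were still higher against GMP and against L-GMP. Granule genes set replicate 1 apart in both directions. Mpo was 3581 on replicate 1 and 425 and 319 on replicates 2 and 3, while S100a8 was 334 against 3517 and 3874, Ngp was 155 against 2119 and 2179 and Camp was below 0 against 248 and 185. Elane (6419, 6445 and 5623) and Prtn3 (7435, 7293 and 7697) hardly differed. The part of this difference in the members' values was not tested.

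Other known ATF4 targets were counted in the same way, from a list of 36 genes of which 31 were tested. In L-GMP-derived cells against GMP, 16 rose and 3 fell, with a median log2 difference of 0.47, and against L-GMP 17 rose and 2 fell, with a median of 0.62. Genes that rose against GMP included Stc2, a secreted glycoprotein (at least 8.37-fold, limma adjusted p = 8.72e-07), Slc1a4, a neutral amino acid transporter (log2 at least 2.48), Nupr1, a stress-induced chromatin protein (at least 3.94-fold), and Mthfd2, a mitochondrial folate enzyme (3.54-fold). Bounds at the floor give these genes no order. Stc2, Slc1a4, Nupr1, Cth and Vldlr entered the test only through their L-GMP-derived arrays, and Ppp1r15a did not pass without its GMP arrays. Of the other 25 targets, 11 rose and 2 fell against GMP, with a median of 0.40, and 12 rose and 2 fell against L-GMP. Genes that fell were Ppp1r15a, the inducible subunit of the eIF2 phosphatase, Ndrg1 and Map1lc3b. In L-GMP against GMP, 1 rose and 6 fell, with a median of -0.04. Without L-GMP-derived replicate 1, a choice made after seeing the data, the counts were 16 higher and 2 lower against GMP, 16 higher and 4 lower against L-GMP, and 3 higher and 9 lower in L-GMP against GMP.

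Phgdh, the first enzyme of serine synthesis and a target on this list, had a pattern of its own. Its signals were 4776, 4002 and 4380 on the L-GMP-derived arrays, 205, 295 and 399 on the L-GMP arrays and 4124, 4241 and 4276 on the GMP arrays. It was 15.1-fold higher in L-GMP-derived cells against L-GMP (limma adjusted p = 4.49e-07) and 14.6-fold lower in L-GMP against GMP (adjusted p = 4.28e-07), while the L-GMP-derived and GMP arrays overlapped. Slc7a5, a leucine transporter, likewise was 5.66-fold higher in L-GMP-derived cells against L-GMP and 2.37-fold lower in L-GMP against GMP. Its signals were 903, 691 and 625 on the L-GMP-derived arrays, 119, 116 and 156 on the L-GMP arrays and 303, 294 and 323 on the GMP arrays. Of the 10 members, 0 were called lower in L-GMP against GMP.

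**Figure D3:**
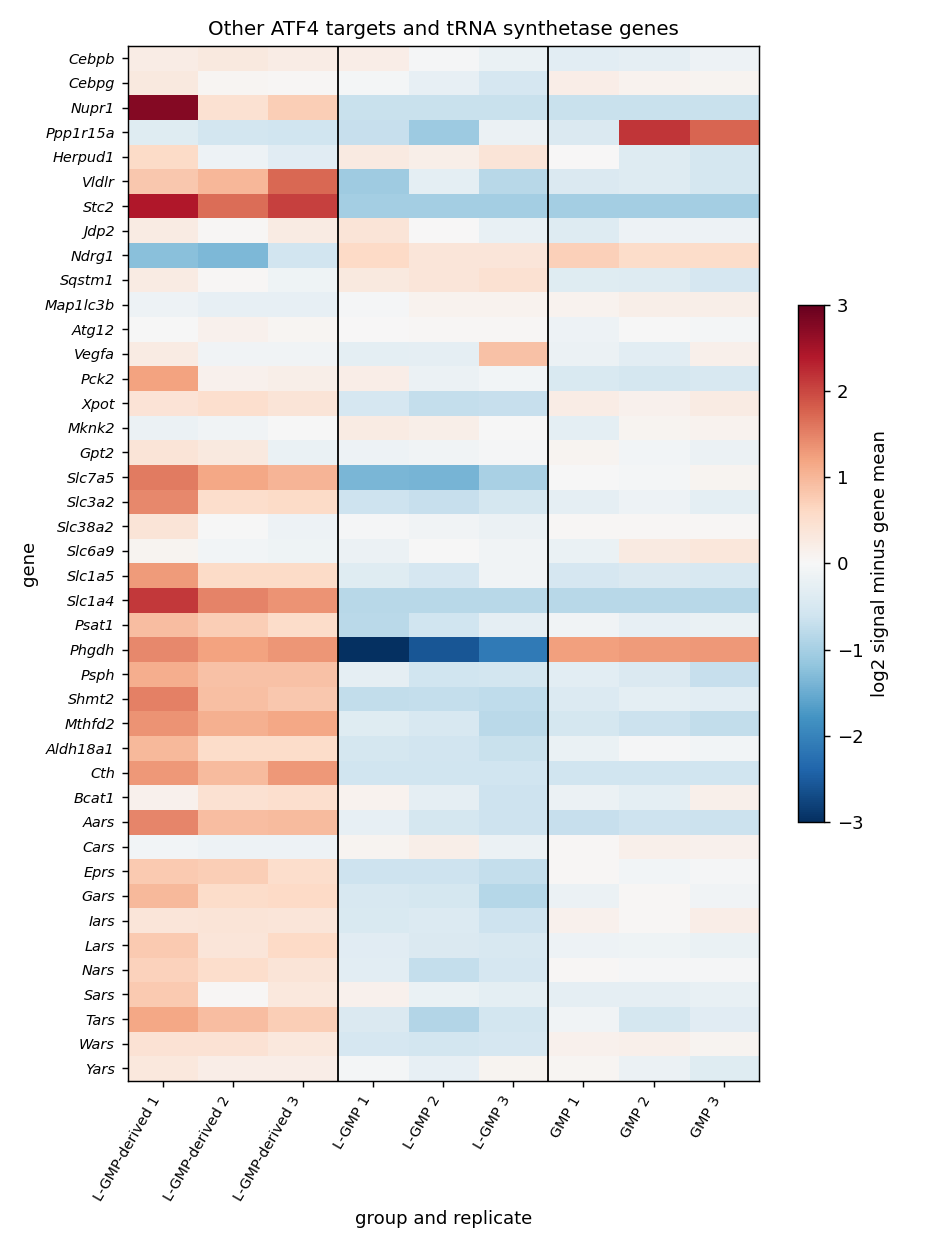
Log2 signal of each tested ATF4 target outside the 10 members and of each tested tRNA synthetase (genes down the page) on each of the 9 arrays, minus the mean of the gene over the arrays; red is higher and blue lower, and black lines part the groups. The L-GMP-derived columns are red for Stc2, Slc1a4, Mthfd2 and Aars, and Phgdh is blue in the L-GMP columns alone.

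Cytosolic aminoacyl-tRNA synthetases, many of them ATF4 targets, were tested for 11 of 12 genes. In L-GMP-derived cells 8 rose and 0 fell against GMP (median log2 0.64), and 8 rose and 0 fell against L-GMP (median 1.00). Aars, which charges alanine tRNA, rose 3.40-fold against GMP (limma adjusted p = 2.67e-05), and Tars, which charges threonine tRNA, rose 2.40-fold (adjusted p = 0.000361). In L-GMP against GMP 0 rose and 5 fell (median -0.30), among them Wars by 1.56-fold. The TGATGNAA core was in the promoters of 5 of 7 synthetase genes with a RefSeq entry and of 8 of 30 other ATF4 targets. Among the tested genes with a promoter it was in 202 of 7254 (2.785%).

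The upstream and neighbouring pathways were counted from lists of the same kind. Of the genes for eIF2, its kinases, its exchange factor and the control of its phosphorylation, 13 were tested. In L-GMP-derived cells against GMP 4 rose and 1, Ppp1r15a, fell (median log2 0.07). The 4 kinases Eif2ak1, Eif2ak2, Eif2ak3 and Eif2ak4 did not pass the test in any comparison. Eif2b5, the catalytic subunit of the exchange factor, rose 2.27-fold against GMP (limma adjusted p = 0.00167). Eif2b5 passed the filter on dim signals only through its L-GMP-derived arrays, so its call and its place among the 4 add no support. Ppp1r15a, which ATF4 is known to induce, was 3.15-fold lower (limma adjusted p = 0.0479). Its GMP arrays, at 98.4, 594 and 451, nevertheless overlapped the L-GMP-derived ones at 105, 91.2 and 88.2. Ppp1r15a did not pass that filter without its GMP arrays, so its call adds no support either. Of 20 genes of the ATF6 and XBP1 branches of the unfolded protein response, 2 rose and 2 fell against GMP (median -0.01), while 8 rose and 2 fell against L-GMP. In L-GMP against GMP 1 rose and 9 fell. Hspa5, the main chaperone of the endoplasmic reticulum, had a mean signal of 5043 ± 337 in L-GMP-derived cells, against 3701 ± 154 (L-GMP) and 5748 ± 356 (GMP) (SD, n = 3 each).

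Of 11 tested genes of the mTORC1 pathway, 1 rose and 3 fell in L-GMP-derived cells against GMP. Deptor, an inhibitor of mTOR, rose 2.22-fold, and Sesn3, the relative of Sesn2, was at least 7.70-fold lower, with 96.3, 48.7 and 53.3 on the L-GMP-derived arrays, 275, 354 and 313 on the L-GMP arrays and 547, 553 and 567 on the GMP arrays. Sesn1 was 1.48-fold lower. Of 9 tested p53 targets, a group that shares Sesn2, 6 rose and 1 fell against GMP, and Cdkn1a, the cell cycle inhibitor p21, rose 7.37-fold. Of 14 genes of the glucocorticoid and hypoxia responses, which share Ddit4, 3 rose and 3 fell. Of 16 ATF, CREB and C/EBP genes outside the members, 2 rose and 1 fell, and of 7 relatives of Trib3, Chac1 and Asns, 2 rose and 0 fell. Phlda3 of the p53 targets was 176, 163 and 305 on the L-GMP-derived arrays and at most 76.6 elsewhere. Got1 of the relatives was 165, 139 and 148 there and at most 92.2 elsewhere. Both passed the filter on dim signals only through their L-GMP-derived arrays, so any rise counted for them adds no support. The counts in this paragraph were not repeated without such genes.

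**Figure D4:**
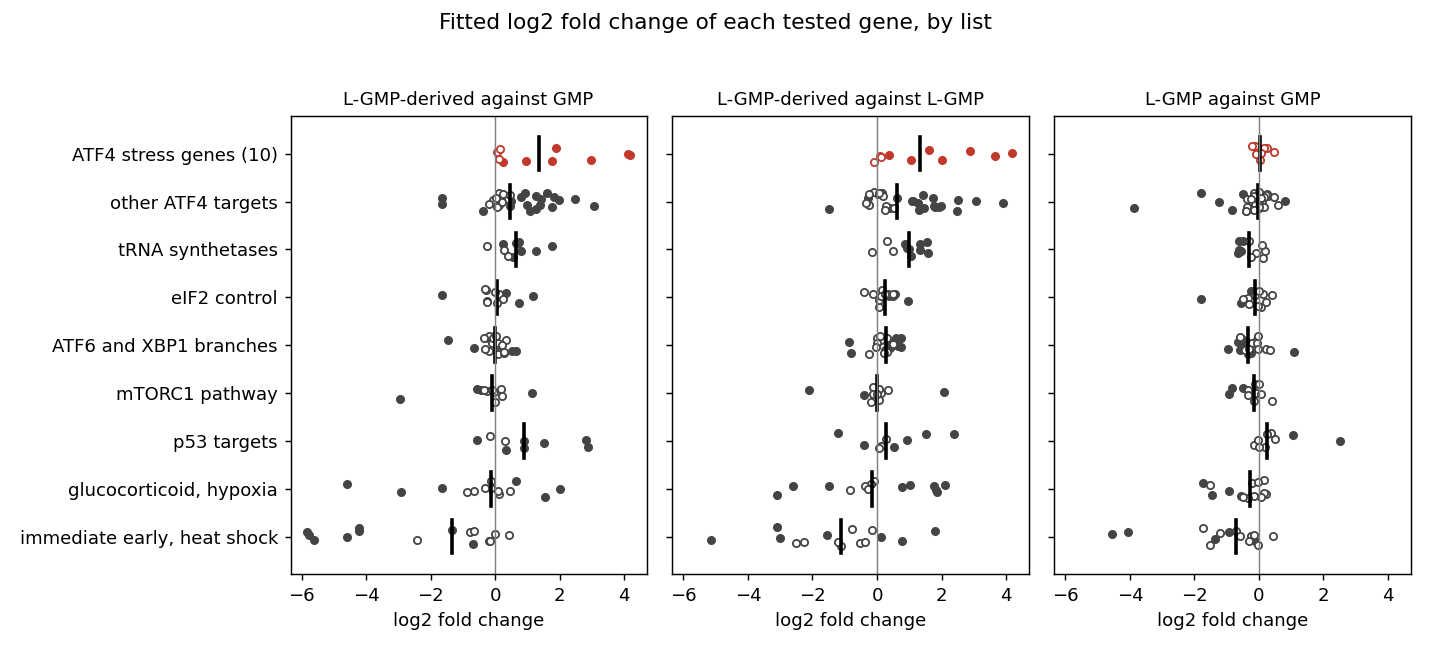
Log2 fold change of each tested gene (points) in the 10 members (red) and in 8 other lists, for each comparison. Filled points passed a limma adjusted p of 0.05, and black bars are list medians. In L-GMP-derived cells against GMP the medians are 1.36 for the members, 0.47 for the other ATF4 targets, 0.64 for the tRNA synthetases and -1.35 for the immediate early and heat shock genes. Without the genes that passed the filter on dim signals only through 1 group, the medians are 0.25 for the members and 0.40 for the other ATF4 targets. The tRNA synthetases had 0 such genes. Medians of the remaining lists were not recomputed in this way, and such genes are among their points, as Eif2b5 for eIF2 control and Phlda3 for the p53 targets.

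The genes whose profile over the 9 arrays was most like that of Asns, by the root mean square difference of centred log2 signals among 8949 genes outside the members, were Stc2 (0.33), Cish (0.36), Msmo1 (0.37), Grb14 (0.38) and Slc1a4 (0.40). For Atf4 they were Sfxn1 (0.048), Ccdc117 (0.051), Lama5 (0.053), Arfgap2 (0.061) and Cpsf1 (0.063). These are descriptions of these arrays, and the Atf4 values are small because its own range is small.

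Some markers of cell type also differed between the groups. Of 11 GMP and myeloid progenitor markers, 0 rose, 4 fell and 7 were not called in L-GMP-derived cells against GMP. Against L-GMP 3 rose and 5 fell. Ctsg, for instance, was 9265, 8806 and 8692 on the L-GMP-derived arrays, 7047, 5363 and 5892 on the L-GMP arrays and 8350, 8200 and 8229 on the GMP arrays. Kit, the progenitor's receptor for stem cell factor, was 110, 105 and 67.0 on the L-GMP-derived arrays, 614, 587 and 771 on the L-GMP arrays and 861, 778 and 809 on the GMP arrays. Cd34 was under the floor on all L-GMP-derived arrays. The summed signal of 7 mast cell, basophil and eosinophil markers was 235 to 373 on the L-GMP-derived arrays, 4213 to 6433 on the L-GMP arrays and 3362 to 3614 on the GMP arrays, with 4, 2 and 0 of the genes at or under the floor throughout. The summed signal of 8 monocyte and macrophage markers was 3531 to 4640 on the L-GMP-derived arrays, 10003 to 11042 on the L-GMP arrays and 10502 to 11221 on the GMP arrays, with 2, 1 and 2 genes at the floor. The monocyte sum hides opposite moves: of 6 tested, 2 rose and 2 fell in L-GMP-derived cells against GMP. Adgre1 (402, 1253 and 1297 against 387, 361 and 376) and Cd68 were higher, and Csf1r and Ccr2 lower. The summed signal of 9 neutrophil markers was 1001 to 8562, 18007 to 37395 and 8993 to 22656 in the same groups, with 1, 1 and 2. Of 10 tested erythroid, B cell, T and NK cell markers, 1 was lower in L-GMP-derived cells against GMP and 0 were higher. All 6 genes of the MLL-AF9 leukemia list were called higher in L-GMP against GMP. Of 15 immediate early and heat shock genes, known to respond to the handling of cells, 0 rose and 8 fell in L-GMP-derived cells against GMP. The GMP arrays were split in these genes, with summed signals of 25440 to 59542. Egr1 was 146 on GMP replicate 1 and 4026 and 2761 on GMP replicates 2 and 3. GMP replicate 1 was the lowest of its group for 5 of the 10 members, Ddit4 among them, against 38.4% of all tested genes. The 3' to 5' signal ratio of beta-actin, a measure of RNA integrity, was 7.10 ± 0.140 in L-GMP-derived cells, against 5.17 ± 0.355 (L-GMP) and 7.37 ± 0.648 (GMP) (SD, n = 3 each). The exact two-sided permutation p was 0.8 for L-GMP-derived cells against GMP and 0.1, the smallest that 3 against 3 arrays allow, for the other comparisons. The beta-actin 3' to middle ratio was 3.01 ± 0.170 in L-GMP-derived cells, against 2.26 ± 0.291 (L-GMP) and 4.23 ± 0.537 (GMP), and that of Gapdh was 1.86 ± 0.132 in L-GMP-derived cells, against 1.85 ± 0.0493 (L-GMP) and 2.13 ± 0.101 (GMP) (SD, n = 3 each). Both gave the smallest p of 0.1 for L-GMP-derived cells against GMP (exact permutation). The Gapdh 3' to 5' ratio gave exact p of 0.6 to 1. The part of cell makeup, handling and RNA quality in the members' values was not tested.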

How the data were processed

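The authors deposited linear array intensities, 1 signal per probe set and array. MAS5 (version 5) is named in the submitters' processing notes; for background, summary and scaling, no method is given in these sources. Of 204210 values 0.939% were negative, which the signal algorithm of MAS5 does not give, so the step that made these signals is unknown. Signals were raised to a floor of 62.4 (the 25th percentile of all) and turned to log2. Tested were 14578 probe sets with signals over 111 (the 40th percentile) on 3 or more arrays, 64 controls left out; 16 of the 17 member probe sets passed. Folds of dim genes are understated, and "at least" marks a lower group with arrays at the floor, as a bound on the fold between means of log2 signals and not on that between plain means. Symbols are those of the platform annotation. The fit used limma 3.58.1 in R 4.3.3 (all 9 arrays, eBayes with intensity trend, two-sided, 6 residual degrees of freedom) with Benjamini-Hochberg adjustment across tested probe sets and a threshold of 0.05. The number of arrays limits precision. The script was tested on simulated data. All members are named. Up to 4 called genes of largest change per list could be named by rule; further list genes were picked after their values were seen. Members and lists were chosen with earlier results of these data known. Scaling, floor, filter, trend, weights, arrays and probe set choice were varied.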

Additional observations from a re-analysis of the deposited data

How the results depend on the processing

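With quantile or median scaling, either other floor, array weights or only the arrays compared, 7 members were called higher and 0 lower in L-GMP-derived cells against GMP and against L-GMP. Against GMP the count was 5 without the intensity trend, under the replicate block and at a minimum of 2-fold, and it was 8 in both comparisons with probe sets averaged. With the filter met on all 9 arrays both counts were 4, since Trib3, Chac1 and Atf5 were then not tested. Leaving out 1 array at a time gave 6 to 7 against GMP and 6 to 8 against L-GMP, the 8 holding Ddit3 as lower. In L-GMP against GMP the count was 1 (Atf4, lower) with quantile normalization, with only the 6 arrays compared and with array weights, 1 (Sesn2, higher) when probe sets were averaged, and 0 to 1 with an array left out, the 1 being Atf4 without L-GMP-derived replicate 1. The cause was not tested.

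Correlations of deviations from group means were -0.309 to 0.170 for same-numbered arrays and -0.185 to 0.300 for arrays with different numbers. Deviations cancel within each group of 3 arrays, and GMP replicate 1 was left out. These values therefore cannot settle whether the arrays are paired. A replicate block by number was also fitted. GMP replicate 1, whose title holds no number, formed a block of its own and so had no weight in comparisons with GMP. Under the block, 1916 probe sets were called in L-GMP against GMP in place of 3777. In L-GMP-derived cells against GMP it was 1750 in place of 3551. The block ended the calls of Ddit4 (limma adjusted p = 0.159) and the brightest Atf4 probe set (0.0854) in L-GMP-derived cells against GMP and of Sesn2 in L-GMP against GMP (0.104). Array weights gave 6912 in L-GMP-derived cells against GMP. A minimum of 2-fold left 971, 954 and 1115 for L-GMP against GMP, L-GMP-derived cells against GMP and L-GMP-derived cells against L-GMP. With 1 array left out the first count was 2475 (without GMP replicate 3) to 4904, and the second 2306 (without GMP replicate 3) to 4456.

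Of 924 alternative values of members, 865 kept direction and call, 18 lost a call, 14 gained one and 27 changed sign, none of the last called. In L-GMP against GMP the log2 value was 0.0212 for Atf4 (1448135_at) with quantile normalization and -0.149 to 0.0855 with an array left out. Under the block it was -0.1882 for Ddit3, -0.0112 for Chac1 and -0.0807 for Asns. With probe sets averaged it was 0.1262 for Atf4 and 0.1039 for Eif4ebp1. With an array left out it was -0.0663 to 0.1064 for Atf3, -0.7994 to 0.2952 for Ddit4, -0.0403 to 0.7444 for Chac1, -0.2946 to 0.2979 for Asns and -0.0421 to 0.0838 for Sesn2. In L-GMP-derived cells against GMP, Ddit3 was -0.2784 with array weights, -0.2748 under the block and -0.4572 to 0.4099 with an array left out, the dim Atf4 probe set 0.1106 under the block and -0.3721 to 0.1505, and Atf3 -0.0245 to 0.1989. Against L-GMP, Atf3 was -0.0134 with array weights and -0.0523 to 0.1712, and Ddit3 -0.6055 to 0.2616. Without a filter, Ddit4 lost its call against GMP (limma adjusted p = 0.151) and L-GMP (0.0993).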

Other observations

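Among genes called higher in L-GMP-derived cells against GMP, 34 of 992 with a RefSeq promoter held the TGATGNAA core (3.427%), against 32 of 777 among genes called lower (4.118%) and 136 of 5485 among genes not called (2.479%). Of the 7 members that rose, 6 have a promoter entry and 3 of these hold it. No test of these shares was made. Slc7a11, the cystine transporter and a known ATF4 target, was too dim to test: its signals were 155, 56.2 and 66.5 on the L-GMP-derived arrays, 12.5, 32.3 and 8.02 on the L-GMP arrays and 36.5 to 45.9 on the GMP arrays.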
